A study of Mus musculus with 9 samples.

Results

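The Zbtb genes encode transcription factors that join an N-terminal BTB domain to C-terminal zinc fingers. They were chosen by name, as the genes typed mRNA whose symbol is Zbtb followed by a number and at most a letter from a to c, and 40 of the 44788 genes in the table, of which 23382 were typed mRNA, met this rule. A further 2 symbols that begin with Zbtb, Zbtb8os and Zbtbd6, fell outside it. The rule used no measured value, but the family and the other gene lists were chosen with earlier results of these data known.

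RNA was sequenced from undifferentiated J1 cells, a mouse embryonic stem cell (ESC) line that was grown without feeders or serum in the presence of LIF. The 3 groups were control ESCs, labelled wild type, Foxj3-ES and Zbtb18-ES, and each had 3 libraries of total RNA that were read on an Ion Proton. Foxj3-ES and Zbtb18-ES were lines made with a lentiviral vector that carries puromycin resistance and the coding sequence of mouse Foxj3, a forkhead factor, or of Zbtb18. The controls are not described as carrying the empty vector, so the inserted gene cannot be told apart from lentiviral transduction and selection. The study made these lines because it examined both genes as targets of miR-219, a microRNA that it followed in neural differentiation, and the libraries address how each factor alters the transcriptome of ESCs. The methods say of the data in general that they come from independent experiments, and neither they nor the labels say it of these libraries by name, so the p-values measure the spread between these libraries, part of which may be technical.

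The deposited values were RPKM, that is reads per gene length and library size, with the upper quartile of a library as its scale (UQRPKM). Within a library, UQRPKM can be compared between genes, as it is a level per length. Fold changes were taken as differences of log2(UQRPKM + 1), so that low genes show less than their full change, and limma tested the 22268 genes that reached a UQRPKM of 1 in 3 or more of the 9 libraries, with every library in a common fit. Rose and fell are used for genes at an adjusted p under 0.05 (Benjamini-Hochberg, over all genes tested). Of the 40 members, 39 were tested, and Zbtb20 was below the limit. Depth was estimated from the steps between the values of low genes. At the most frequent step, a UQRPKM of 0.427 in the deepest library, Zbtb18-ES replicate 2, and of 0.667 in the shallowest, Foxj3-ES replicate 1, stood for 1 read in a transcript of 2000 bases, and some genes had smaller steps, so that the reads given here are low estimates. At this step 6 of the 40 members had under 20 reads in at least 1 library.

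The BTB domain lets these proteins pair with themselves or with each other and binds corepressor complexes with histone deacetylases or the ubiquitin ligase scaffold Cul3, and the zinc fingers read the DNA sequence. Most members that have been studied act as repressors. In the developing cortex Zbtb18, also known as RP58, is needed for progenitors to become neurons, where it represses Id genes and proneural genes. Other members act in the p53 and cell cycle response, in the reading of methylated DNA, at telomeres, and in the choice of lymphoid and myeloid lineages.

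The sequences that link the family to the design are those of miR-219 and of its possible sites in Zbtb18. The mature microRNA, credited to RefSeq (GRCm38.p6), is encoded on chr2 and chr17, and its seed, bases 2 to 8, is in capitals.
mmu-miR-219a-5p: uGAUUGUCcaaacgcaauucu
In the 3′ UTRs of GENCODE M21, 1 coding transcript for each gene, the match to these 7 bases (GACAATC) was found in 3 of the 40 members, 7.5%, and in 882 of the 21747 coding genes, 4.06%. The members had longer 3′ UTRs, with a median of 2176 bases against 731 over all coding genes. Zbtb18 had 2 matches near the end of its 3′ UTR, on the plus strand at chr1:177450492-177450513 and chr1:177450625-177450646 (GRCm38), each followed by an A. They are given with the 14 bases before the match, which is in capitals.
Zbtb18 site 1: attaatctagaggaGACAATCa
Zbtb18 site 2: tgacatctagctttGACAATCa
Zbtb37 also had 2 matches, on the minus strand at chr1:161009507-161009528 and chr1:161004187-161004208.
Zbtb37 site 1: gggtcctacagattGACAATCt
Zbtb37 site 2: tctataccgaaagaGACAATCa
The other member was Zbtb7c, with 1 match. A match by itself is a description of the letters and does not show that the microRNA acts there. For Zbtb18 the study reported reporter assays of its 3′ UTR, in which miR-219 mimics lowered activity unless the seed sequences were mutated. It also reported that the mimics lowered Zbtb18 protein, rather than its mRNA, in ESCs. The Zbtb18 matches begin at bases 1835 and 1968 of a 3′ UTR of 2093 bases. Both numbers lie within the range that the study gives for the fragment it cloned. Its transcript numbering and its mutated sites were not compared with the matches printed here.

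Zbtb18 came first, as the gene that Zbtb18-ES was made to express. It lies at chr1:177442351-177450764 (GRCm38, plus strand), and its coding sequence of 1593 bases is split between 2 exons in the annotation, with an antisense gene, Gm26801, over an exon. The UQRPKM of Zbtb18 was 46.4, 65.4 and 49.0 in the control libraries, 38.2, 40.8 and 36.5 in the Foxj3-ES libraries, and 34.9, 129 and 57.0 in the Zbtb18-ES libraries. Zbtb18-ES replicate 2 stood above the rest, replicate 3 lay among the controls, and replicate 1 was the lowest of the 9 libraries. The mean was 53.6 ± 10.3 (SD, n = 3) in control and 73.6 ± 49.3 (SD, n = 3) in Zbtb18-ES, a difference of 0.26 on the log2 scale with a standard error of 0.39 and a 95% interval from -0.61 to 1.13 (limma, adjusted p = 0.715), and a two-sided exact permutation test gave p = 0.8, where 0.1 is the smallest that 3 against 3 libraries allow. Without Zbtb18-ES replicate 2 the difference turned to -0.24. All 3 Foxj3-ES libraries lay below every control, with a difference of -0.45 that did not pass the test (adjusted p = 0.48, exact permutation p = 0.1, the smallest possible). Reads from the inserted coding sequence and from the gene itself are summed in these values. Foxj3, the gene inserted in the other line, was at 119, 168 and 177 in Foxj3-ES and at 124, 145 and 115 in control (exact permutation p = 0.3). In Zbtb18-ES Foxj3 was at 94.0, 87.6 and 105, below every control and every Foxj3-ES library. Neither target gene was therefore shown to be higher than in control in the line labelled with it, and Foxj3-ES and Zbtb18-ES stand below for the libraries labelled so.

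The libraries differed in other ways that bear on the family. Control replicate 2 stood apart on GC content: the 10% of genes with the highest GC content exceeded the 10% with the lowest by 0.98 on the log2 scale, relative to the mean of the 9 libraries, against 0.09 and 0.11 in the other controls and -0.51 to 0.21 in the 6 libraries of the lines. It held the highest level of 21 of the 39 tested members, and it lay above both other controls for 27, with a median difference of 0.30 on the log2 scale. These counts were not made over all genes, so they are not shown to be particular to the family. Because of this library, results are also given without it. Of 8 ESC markers all were detected, and their summed UQRPKM ranged from 35016 to 40096 in control, from 39817 to 43642 in the Foxj3-ES libraries and from 45647 to 62367 in those of Zbtb18-ES. Most of the sum was Pou5f1 and Dppa5a. In Foxj3-ES 4 of the 8 fell and none rose, with a median of -0.46, and in Zbtb18-ES 2 fell and Dppa5a rose, with a median of -0.31. Nanog fell from a mean of 2324 to 828 and 1216 (limma, adjusted p = 0.00117 and 0.011), and Klf4 from 912 to 224 and 303 (adjusted p = 0.000125 and 0.000493), while Sox2 and Esrrb fell in Foxj3-ES. The summed level of 6 neural markers was 426 to 708, 364 to 412 and 159 to 291, with Dcx at 0 in every library, and that of 6 fibroblast markers was 144 to 150.3, 134 to 216 and 54.9 to 81.7, with Lum at 0. Sums of 5 primitive endoderm, 5 trophoblast and 4 haematopoietic markers reached at most 19.6, 245 and 29.7 in any library. The neural sums were below every control in all 6 libraries of the lines, the fibroblast, primitive endoderm and haematopoietic sums in the 3 of Zbtb18-ES, and the trophoblast sums in the 3 of Foxj3-ES, where Eomes fell (adjusted p = 0.0421). The neural and fibroblast sums were mostly Tubb3 and Thy1, which fell in Zbtb18-ES. Sox1 fell in both lines, and Map2, near a UQRPKM of 1, lay above every control in Zbtb18-ES without passing. The part of these markers in the results below was not tested.

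Most of the family was expressed at a moderate level in ESCs. The median of the 39 tested members, as means over the 9 libraries, was a UQRPKM of 50.3, against 74.2 over the tested mRNA genes, and 13 of the 39 lay above that. Of the 40, 8 had a mean of at least 100, 27 a mean from 10 to 100 and 5 a mean under 10. By the mean over the 9 libraries Zbtb8a was the highest, with 257, 366 and 244 in control. Next came Zbtb17, the Myc partner known as Miz1, at 148, 252 and 161, and Zbtb12, at 173, 225 and 164. Zbtb48, which binds telomere repeats, was at 149, 169 and 152, and Zbtb24, whose human gene is mutated in a form of ICF syndrome with loss of centromeric DNA methylation, at 129.6, 124 and 135. The control values of Zbtb17, Zbtb12 and Zbtb48 overlapped, so their order is within the spread, while Zbtb24 lay below them in every control and Zbtb8a above them but for the 252 of Zbtb17. In control alone Zbtb45, Zbtb9 and Zbtb43, at means of 156, 154 and 136, were above the 129.8 of Zbtb24, and Zbtb45 and Zbtb9 ranked lower over the 9 libraries because of their lower values in the lines.

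**Figure D1:**
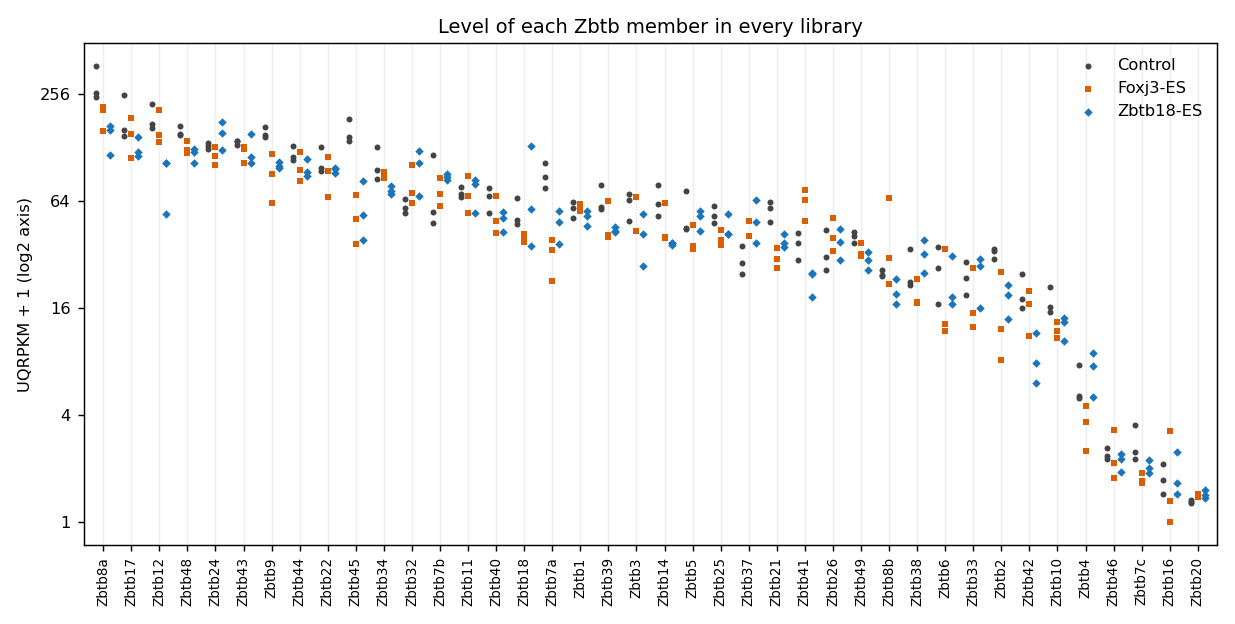
UQRPKM + 1 of the 40 members in each of the 9 libraries, on a log2 axis, ordered by the mean over all libraries, with circles for control, squares for Foxj3-ES and diamonds for Zbtb18-ES. Levels run from Zbtb8a, at 116 to 366, down to Zbtb20, below 1 in every library.

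At the other end were members known from other tissues. Zbtb20, which shapes the hippocampus and the liver, was at 0.33, 0.30 and 0.27 in control, 0.44, 0.44 and 0.37 in Foxj3-ES, and at 0.37, 0.52 and 0.41 in Zbtb18-ES, on an estimated 8 to 16 reads over an annotated transcript model of 26901 bases. Zbtb16, or PLZF, a regulator of natural killer T cells and spermatogonia, was at 0.72, 1.13 and 0.44 in control, 0, 0.31 and 2.23 in Foxj3-ES, and at 1.49, 0.66 and 0.43 in Zbtb18-ES, on an estimated 0 to 11 reads. Zbtb7c was at 1.49, 2.53 and 1.25 in control, 0.66, 0.71 and 0.88 in Foxj3-ES, and at 1.22, 0.88 and 1.01 in Zbtb18-ES, on an estimated 2 to 12 reads. For Zbtb20 all 6 libraries of the lines lay above every control, but it was left out of the test as too low, and without the filter its differences of 0.13 and 0.14 did not pass (limma, adjusted p = 0.637 and 0.605). For Zbtb16 no difference could be detected at this depth. For Zbtb7c all 6 lay below every control, without passing the test (adjusted p = 0.304 and 0.532). Zbtb46, a marker of classical dendritic cells, averaged 1.41 in control, 1.40 in Foxj3-ES and 1.19 in Zbtb18-ES.

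In Foxj3-ES, 4 of the 39 tested members fell and none rose. Zbtb45 fell 3.09-fold and Zbtb7a 2.85-fold on the log2(UQRPKM + 1) scale, to a mean UQRPKM of 51.1 and 30.8, and Zbtb21 and Zbtb9 fell by less. Over all 22268 genes 7.01% fell and 7.54% rose in this comparison, and among tested mRNA genes 8.94% fell and 6.11% rose, so the 10.3% of members that fell was near the background. At an unadjusted p under 0.05 in limma, 6 members were lower and 2 higher, where 15.3% of all genes tested were lower and 14.5% higher. The median difference of the members was -0.31 on the log2 scale, against -0.03 over all genes tested and -0.10 over mRNA genes, and 32 of the 39 differences were negative. With a correction for GC and length 25 were negative, and the share of negative differences over all genes was not counted. All 3 Foxj3-ES libraries lay below every control for 13 members, 33.3%, against 18.5% of all genes tested. They lay above every control for 2 members, and the share of all genes that did so was not counted. No such share was taken over mRNA genes alone. In these bulk libraries fewer cells that express a gene and less RNA per cell cannot be told apart.

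In Zbtb18-ES, 4 of the 39 also fell and none rose. They were Zbtb45, Zbtb12, Zbtb8a and Zbtb7a, and none was Zbtb18. The background was 6.5% lower and 5.31% higher over all genes, and 8.68% lower and 4.49% higher over mRNA genes, again near the 10.3% of the members. At an unadjusted p under 0.05 in limma, 12 members were lower and 2 higher, against 15.4% and 12.5% of all genes. The median of the members was -0.36 against -0.02 over all genes and -0.10 over mRNA genes, and 28 of 39 differences were negative, as were 28 with the correction for GC and length. A share of negative differences over all genes was not counted here either. All 3 libraries lay below every control for 18 members, 46.2%, against 20% of all genes. For 2 members they lay above every control, again without a share over all genes. Both comparisons use the same controls, so a lower value in one is not independent of a lower value in the other. Without Control replicate 2 the medians of the members were -0.21 for Foxj3-ES and -0.29 for Zbtb18-ES, and with a correction for GC and length -0.14 and -0.17, against -0.04 and -0.08 over all genes tested.

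**Figure D2:**
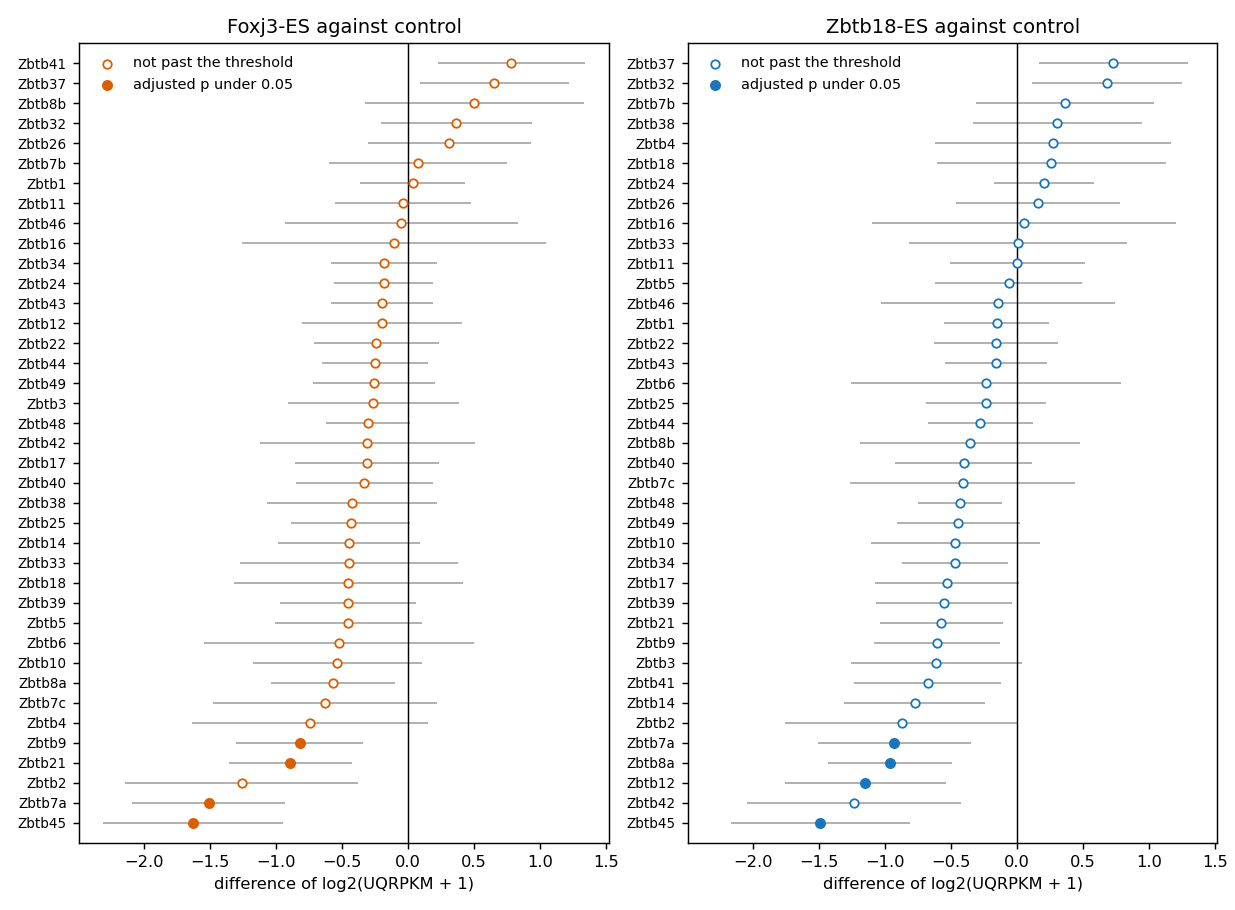
Difference of log2(UQRPKM + 1) between Foxj3-ES and control (left) and Zbtb18-ES and control (right) for the 39 tested members, with 95% intervals, each panel in its own order. Filled points passed an adjusted p of 0.05, and they are 4 on the left and 4 on the right, all below 0.

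Zbtb45 had the largest fall in both lines. It lies at chr7:13003898-13010034 (minus strand), no other annotated gene overlaps its exons, and in the mouse it has been described as a regulator of glial progenitor differentiation. It was at a UQRPKM of 138, 185 and 145 in the controls, 35.8, 68.1 and 49.4 in Foxj3-ES, and at 37.6, 81.5 and 52.6 in Zbtb18-ES. Every library of either line was below every control by a wide margin, on an estimated 105 to 738 reads. The mean fell from 156 ± 25.1 (SD, n = 3) to 51.1 ± 16.2 in Foxj3-ES, a difference of -1.63 with a standard error of 0.31 (limma, adjusted p = 0.00816), and to 57.3 ± 22.3 in Zbtb18-ES, a difference of -1.49 with a standard error of 0.31 (adjusted p = 0.0149). Both calls held in all 20 alternative analyses, with differences of -1.86 to -1.40 and -1.78 to -1.23, and the lines were not shown to differ from each other (0.14, 95% interval from -0.54 to 0.82, adjusted p = 0.867).

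Zbtb7a, also called LRF, represses the tumour suppressor Arf and fetal globin genes. It lies at chr10:81135220-81152995 (plus strand). The controls held 75.2, 103 and 86.2, Foxj3-ES 21.7, 37.6 and 33.0, and Zbtb18-ES 35.9, 55.0 and 47.7. Both lines lay below the controls in each library. The fall was -1.51 in Foxj3-ES, with a standard error of 0.26 (limma, adjusted p = 0.00588), and it held in all 20 alternatives. In Zbtb18-ES it was -0.93, with the same error (adjusted p = 0.0446), and this call was lost in 11 of the 20 alternatives, among them all those without a control or a Zbtb18-ES library (adjusted p = 0.0534 to 0.136) and that corrected for GC and length, where the difference was -0.48 (adjusted p = 0.163). The difference between the lines was not past the threshold (0.58, adjusted p = 0.302).

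The promoters of these 2 genes and of Zbtb18 are shown because the first 2 were the members called in both lines and the third names a line. They are the 250 bases before the annotated start in RefSeq (GRCm38.p6), with GGGCGG, the core of the GC box, in capitals on either strand, and in Zbtb18 also ACATCTG, which has been reported as the core of the Zbtb18 site. The Zbtb45 window is chr7:13009853-13010102, minus strand, the Zbtb7a window chr10:81136021-81136270, plus strand, and the Zbtb18 window chr1:177442101-177442350, plus strand.
Zbtb45 promoter: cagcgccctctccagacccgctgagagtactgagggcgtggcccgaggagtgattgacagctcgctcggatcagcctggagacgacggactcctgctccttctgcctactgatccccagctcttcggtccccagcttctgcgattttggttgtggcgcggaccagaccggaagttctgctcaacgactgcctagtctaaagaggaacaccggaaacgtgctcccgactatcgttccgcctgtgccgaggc
Zbtb7a promoter: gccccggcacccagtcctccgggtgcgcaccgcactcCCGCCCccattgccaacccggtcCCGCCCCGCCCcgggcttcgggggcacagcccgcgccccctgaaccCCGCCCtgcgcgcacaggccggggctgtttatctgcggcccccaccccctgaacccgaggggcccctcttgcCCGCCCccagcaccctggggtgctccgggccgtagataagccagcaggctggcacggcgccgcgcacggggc
Zbtb18 promoter: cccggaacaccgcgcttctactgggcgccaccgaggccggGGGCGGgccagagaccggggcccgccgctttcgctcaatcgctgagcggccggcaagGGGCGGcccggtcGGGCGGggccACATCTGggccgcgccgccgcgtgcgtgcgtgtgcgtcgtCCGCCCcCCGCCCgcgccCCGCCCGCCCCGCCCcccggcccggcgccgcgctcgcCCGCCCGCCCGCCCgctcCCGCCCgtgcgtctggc
Zbtb45 had no GGGCGG and 20 CpG pairs in this window, Zbtb7a 5 and 26, and Zbtb18 12 and 47. The Zbtb18 window is that of the most upstream of its 5 listed starts. The others had no GGGCGG and 0 to 2 CpG pairs. The table lists 48 promoters of 35 members. GGGCGG was in 29 of them, 60.4%, against 32.7% of all 32851 promoters, and ACATCTG was in 3, 6.25%, against 3.71%. The 3 were 2 of the 5 promoters listed for Zbtb18 and that of Zbtb46. These counts are of letters and say nothing of binding.

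In Foxj3-ES, Zbtb21 and Zbtb9 also fell. Zbtb21 (chr16:97943357-97962622, minus strand) shares exon sequence with C2cd2 on the same strand, so its reads may be split between them. It was at 57.8, 62.0 and 47.6 in control, 25.7, 29.2 and 33.9 in Foxj3-ES, and at 36.1, 34.3 and 40.7 in Zbtb18-ES. The fall in Foxj3-ES was -0.89, with a standard error of 0.21 (limma, adjusted p = 0.02), and the difference of -0.57 in Zbtb18-ES did not pass (adjusted p = 0.104). The call was lost without Control replicate 1 (adjusted p = 0.0768) and without Foxj3-ES replicate 1 (0.0649). Zbtb9 (chr17:26973167-27008376, plus strand) overlaps exons of Ggnbp1. It was at 146, 167 and 149.6 in control, 61.5, 117 and 89.8 in Foxj3-ES, and at 97.0, 105 and 99.8 in Zbtb18-ES, below the controls in all 6. The fall in Foxj3-ES was -0.82, with a standard error of 0.22 (adjusted p = 0.0307), and it was lost in 7 of 20 alternatives, which include those that leave out a control, whichever it is, and those that leave out Foxj3-ES replicate 1 or replicate 3 (adjusted p = 0.0636 to 0.0781). In Zbtb18-ES the difference was -0.61 (adjusted p = 0.0966).

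In Zbtb18-ES, Zbtb12 and Zbtb8a fell, both among the highest members of the family. Zbtb12 (chr17:34879483-34896867, plus strand), which in human pluripotent cells has been described as a barrier to dedifferentiation, was at 137, 206 and 149.6 in Foxj3-ES and at 104, 53.1 and 103 in Zbtb18-ES, where it was below every control. The difference was -1.15 with a standard error of 0.27 in Zbtb18-ES (limma, adjusted p = 0.0251) and -0.20 in Foxj3-ES (adjusted p = 0.678, and 0.15 after the GC and length correction), and the lines themselves were not shown to differ (-0.95, adjusted p = 0.137). With the highest GC content of the family, 61.2% of the transcript, Zbtb12 lost its call when GC and length were corrected for (-0.64, adjusted p = 0.162), and also without Control replicate 1, 2 or 3 (adjusted p = 0.0583, 0.0735 and 0.0528). C2 lies over its exons on the other strand, and whether the counting used strand is not given in the sources used here. Zbtb8a (chr4:129353628-129378116, minus strand) was at 158, 207 and 215 in Foxj3-ES and at 168, 116 and 159 in Zbtb18-ES, all below the controls. It fell by 0.96 in Zbtb18-ES, with a standard error of 0.21 (adjusted p = 0.0186), and the difference of -0.57 in Foxj3-ES did not pass (adjusted p = 0.0998). The first call was lost only without Zbtb18-ES replicate 2 (adjusted p = 0.0527), and Zbtb8os overlaps the gene on the other strand.

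**Figure D3:**
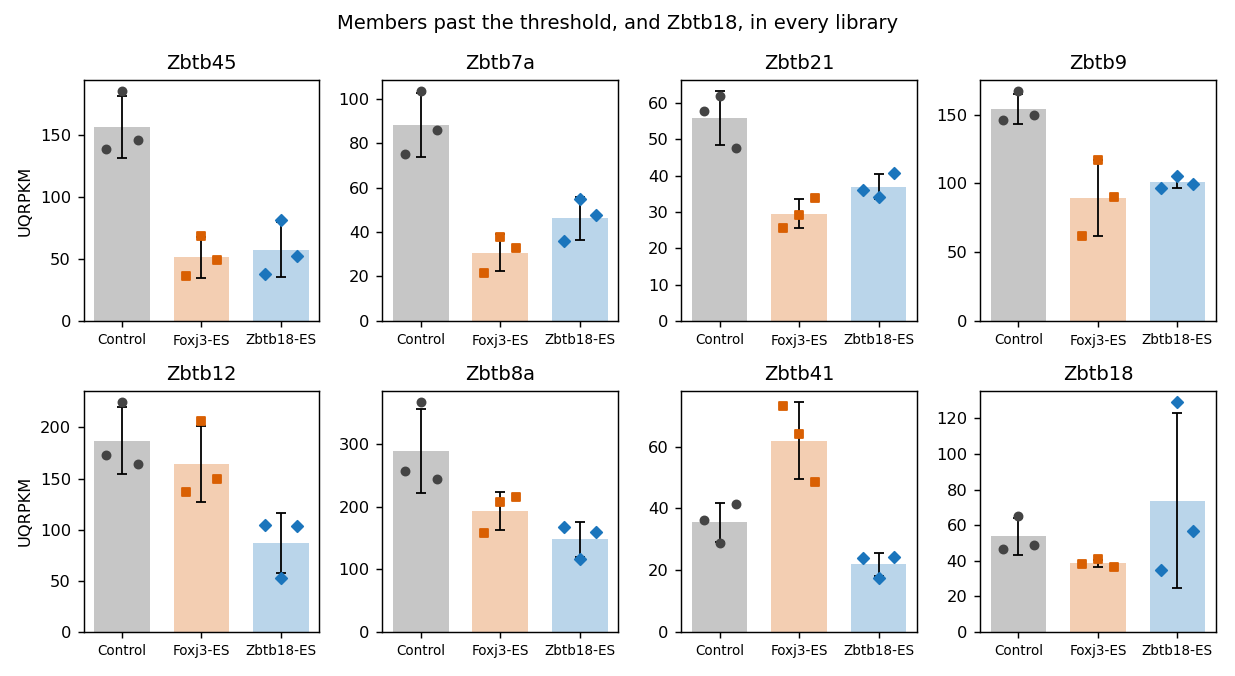
UQRPKM in every library of the 7 members past the threshold in at least 1 comparison, and of Zbtb18, as points with bars for the group mean and error bars for the SD (n = 3). Zbtb45 and Zbtb7a lie below every control in all 6 libraries of the lines, Zbtb41 is higher in Foxj3-ES (48.5 to 73.1) than in control (28.9 to 41.3) and lower in Zbtb18-ES (17.4 to 24.3), and Zbtb18 spreads from 34.9 to 129 in Zbtb18-ES.

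Between the 2 lines, Zbtb41 was the only member past the threshold, with lower values in Zbtb18-ES. Of all genes 0.359% were lower and 0.328% higher in this comparison. At an unadjusted p under 0.05 in limma, 4 members were lower and 4 higher, against 8.88% and 7.28% of all genes. Zbtb41 (chr1:139422288-139453005, plus strand), whose transcript had the lowest GC content of the family, 36.9%, was at 36.2, 28.9 and 41.3 in control, 73.1, 64.1 and 48.5 in Foxj3-ES, and at 23.8, 17.4 and 24.3 in Zbtb18-ES. The Foxj3-ES libraries were all above the controls and the Zbtb18-ES libraries all below. The lines differed by -1.46, with a standard error of 0.25 and a mean of 21.8 ± 3.82 against 61.9 ± 12.4 (SD, n = 3; limma, adjusted p = 0.0327), while neither difference from control passed (0.78, adjusted p = 0.0624, and -0.68, adjusted p = 0.108). The call between the lines was lost in 11 of 20 alternatives, among them those without any single library of either line other than Foxj3-ES replicate 3 and those without Control replicate 1 or 3 (adjusted p = 0.0631 to 0.115). With the correction for GC content and length it held, and the differences from control then passed as well (0.97, adjusted p = 0.0116, and -0.73, adjusted p = 0.0373).

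By role, members of the p53 and cell cycle response besides Zbtb7a did not pass the test. Zbtb2, which represses genes of this response, averaged a UQRPKM of 31.7 ± 2.26 in control, 14.2 ± 9.02 in Foxj3-ES and 17.1 ± 3.94 in Zbtb18-ES (SD, n = 3). All 6 libraries of the lines were below the controls, but the Foxj3-ES values spread from 7.13 to 24.4 and the test was missed (limma, adjusted p = 0.0593 and 0.18). Zbtb2 was called lower in Foxj3-ES with the filter of 5, the same sum, the replicate block and mRNA genes only, and without Foxj3-ES replicate 1. Zbtb17 averaged 187, 149.5 and 126, with 110.1, 188 and 151 in the Foxj3-ES libraries and 113, 145 and 120.4 in those of Zbtb18-ES. Zbtb5, a repressor of the p21 gene in human cells, averaged 53.2, 37.9 and 49.8, and Zbtb49, an activator of the same gene in human cells, averaged 39.2, 32.7 and 28.7. The Foxj3-ES values of these 3 overlapped the controls, while in Zbtb18-ES all libraries lay below every control for Zbtb17 and Zbtb49 (adjusted p = 0.191 and 0.198) and overlapped them for Zbtb5.

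The members that bind methylated DNA were low and did not pass. Zbtb33, known as Kaiso, averaged 22.8 in control, 17.2 in Foxj3-ES and 23.5 in Zbtb18-ES, Zbtb38 averaged 25.1, 18.2 and 31.0, and Zbtb4 averaged 4.90, 2.55 and 6.18. For Zbtb38 and Zbtb4 all 3 Zbtb18-ES libraries were above all 3 Foxj3-ES libraries (adjusted p = 0.251 and 0.254). Zbtb4 rested on an estimated 20, 10 and 19 reads in the Foxj3-ES libraries. Of those tied to DNA methylation and telomeres, Zbtb24 was at 102, 127 and 114 in Foxj3-ES, and at 123, 178 and 153 in Zbtb18-ES. Zbtb48, at 122, 138 and 118 and at 104, 119 and 124.7, had the smallest pooled spread of the family, an SD of 0.12 on the log2 scale, and lay below the controls in all 6 libraries (adjusted p = 0.182 and 0.0814). Zbtb10, which binds variant telomere repeats in human cells, averaged 16.5, 11 and 11.6.

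Among members of neural tissue and muscle, Zbtb42, whose human gene is mutated in a lethal contracture syndrome, averaged 18.6 ± 4.57 in control, 14.9 ± 4.45 in Foxj3-ES and 7.48 ± 2.86 in Zbtb18-ES (SD, n = 3). Its Zbtb18-ES values of 6.82, 10.6 and 5.02 were below every control on an estimated 16 to 84 reads over all libraries, and the test was just missed (limma, adjusted p = 0.0548). It was called lower there with the filter of 5, the same sum, quantile scaling and mRNA genes only, and without Zbtb18-ES replicate 2.

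Members known from immune cells did not pass either. Zbtb32, a repressor in activated lymphocytes, averaged 58.8 in control, 77.6 in Foxj3-ES and 97.4 in the Zbtb18-ES libraries, and all 3 Zbtb18-ES libraries were above the controls (adjusted p = 0.114). Zbtb7b, or ThPOK, which sets the helper T cell fate, averaged 72.4, 71.3 and 86.3, and its Control replicate 2 stood at 116 against 54.5 and 47.0 in the other controls. Without that library Zbtb7b was past the threshold as higher in Zbtb18-ES, as it was after the GC and length correction. Zbtb1, which lymphocyte development needs, averaged 56.6, 57.8 and 50.7 and was among the steadiest members, and Zbtb25, a neighbour that starts 664 bases from it on the other strand (chr12), averaged 52.7, 38.7 and 44.8.

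A further 9 members with other or less defined roles did not pass in any comparison. Zbtb43, Zbtb44, Zbtb22 and Zbtb34 were at control means of 136, 117, 106 and 102, at 119, 98.6, 90.8 and 88.6 in Foxj3-ES, and at 123, 96.1, 94.3 and 72.5 in Zbtb18-ES. Zbtb34 was below every control in Zbtb18-ES (adjusted p = 0.122). Zbtb11 averaged 70.3, 69.4 and 71.6 and was almost level, Zbtb40 averaged 65.4, 52.3 and 49.0, and Zbtb39 averaged 64.2, 47.3 and 43.0. Zbtb14, which represses Myc in the mouse, averaged 63.1, 46.5 and 36.0, and its Zbtb18-ES libraries lay close together, at 35.2, 36.3 and 36.3, below every control (limma, adjusted p = 0.0641). It was called lower in Zbtb18-ES with the same sum, the GC and length correction and mRNA genes only, and without Foxj3-ES replicate 2. Zbtb3 averaged 60.3, 50.6 and 40.1.

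Zbtb37, which carries the pair of miR-219 seed matches shown above, was the member with the largest positive difference in Zbtb18-ES. It averaged 28.7 ± 5.46 in control, 45.4 ± 4.8 in Foxj3-ES and 49.0 ± 13.8 in Zbtb18-ES (SD, n = 3), and both lines lay above every control, without passing (adjusted p = 0.116 and 0.0924). Serpinc1 overlaps its exons on the other strand. miR-219 itself was not measured by these values of mRNA.

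A few members lie beside each other in the genome. Zbtb6 and Zbtb26 overlap by exons on the same strand of chr2, so reads may be split between them, and they averaged 25.3, 18.7 and 21.2 and 32.7, 40.4 and 36.2. Zbtb6 had the largest pooled spread of the family, an SD of 0.64 on the log2 scale. Zbtb8b lies 47.6 kb from Zbtb8a on chr4 and averaged 24.0 in control, 38.6 in Foxj3-ES and 18.7 in Zbtb18-ES. Its Foxj3-ES values were 20.7, 65.5 and 29.7, so that a single library, replicate 2, set the high mean.

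**Figure D4:**
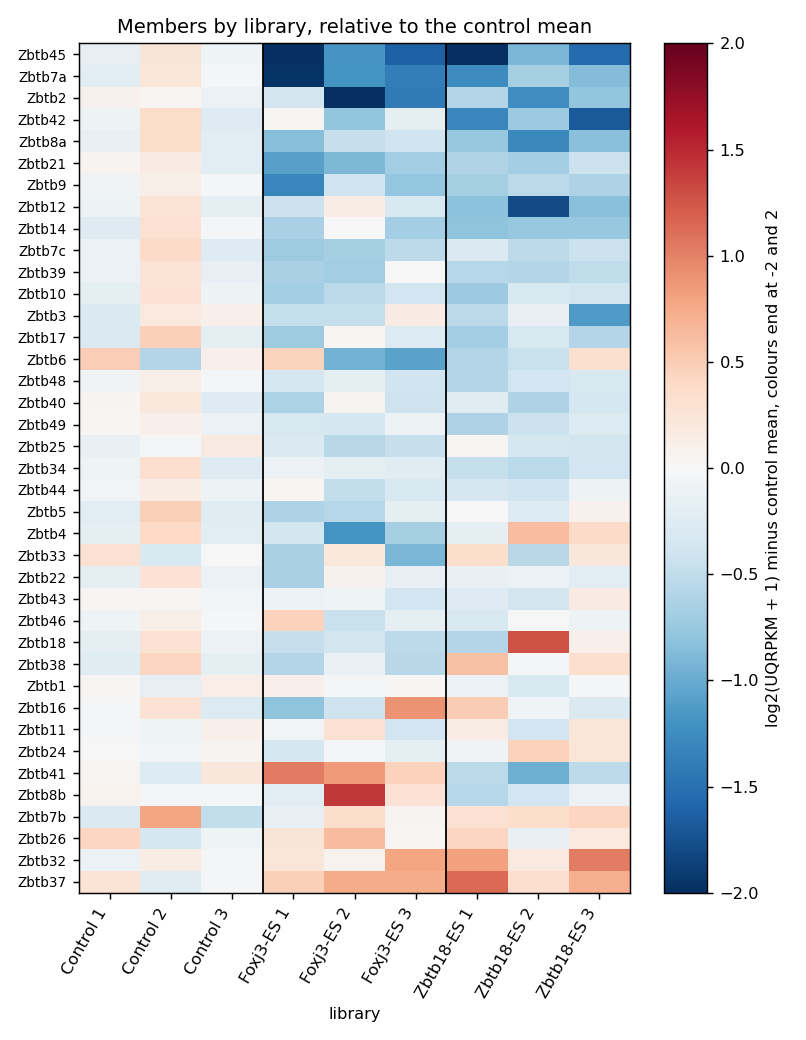
Each tested member (rows, 39) in each library (columns), as log2(UQRPKM + 1) minus the mean of the 3 controls, ordered by the mean difference of the lines, with colours ending at -2 and 2. Zbtb45 and Zbtb7a are blue in all 6 libraries of the lines, Zbtb41 is red in Foxj3-ES and blue in Zbtb18-ES, Zbtb18 is red mainly in Zbtb18-ES replicate 2, and Control replicate 2 is the reddest control column, with 21 of 39 members at their highest.

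Across the 39 members, the difference from control was weakly related to the GC content of the transcript, with a Pearson correlation of -0.27 for Foxj3-ES and -0.28 for Zbtb18-ES, and of -0.09 and -0.10 without Control replicate 2. The points share their libraries, and the members are not independent, so these are descriptions. The members had a median GC content of 50.3%, close to the 50.5% of 14599 tested mRNA genes, and longer transcript models, with a median of 4971 bases against 3193.

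The BTB zinc finger genes that carry other symbols were followed as a list of 8. In each line 2 of these fell, Patz1 and Hic2, and none rose, with medians of -0.46 for Foxj3-ES and -0.01 for Zbtb18-ES. Over all genes tested 7.01% and 6.5% fell, with medians of -0.03 and -0.02, and the list was not tested against these shares. Patz1, which in mouse ESCs helps maintain pluripotency, was at 262, 304 and 300.2 in control, 123, 161 and 174 in Foxj3-ES, and at 143, 141 and 139.9 in Zbtb18-ES. It fell by 0.93 and 1.02 on the log2 scale, with a standard error of 0.16 in each (limma, adjusted p = 0.00542 and 0.00482), and both calls held in all 20 alternatives. Hic2, a homologue of the tumour suppressor Hic1, was at 199, 264 and 179.9 in control, 121, 143 and 123 in Foxj3-ES, and at 125, 114 and 133 in Zbtb18-ES (-0.71 and -0.77, adjusted p = 0.0216 and 0.0192). Its calls were lost without Control replicate 1 or Foxj3-ES replicate 1 or 3 in the first line and without Zbtb18-ES replicate 1 or 2 in the second (adjusted p = 0.0524 to 0.071).

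Among 19 corepressor and Cul3 genes that BTB domains work with, Foxj3-ES had 1 that rose and 2 that fell, Zbtb18-ES had 2 that fell, and the medians were -0.32 and -0.28. Over all genes tested 7.54% rose and 7.01% fell in Foxj3-ES, and 5.31% rose and 6.5% fell in Zbtb18-ES. The medians over mRNA genes were -0.10 in both, and the list was not tested against this background. Bcorl1, a relative of the BCL6 corepressor Bcor, was at 38.7, 63.9 and 31.4 in control and 14.1, 17.7 and 25.7 in Foxj3-ES (-1.16, limma, adjusted p = 0.0428). In Zbtb18-ES it was at 18.1, 27.3 and 23.8, also below every control, without passing (-0.88, adjusted p = 0.115). The deacetylase Hdac1 was at 863, 744 and 835 in control and at 578, 236 and 474 in Zbtb18-ES, lower in each library of the line than in any control, and fell there (-1.01, adjusted p = 0.0375). In Foxj3-ES it was at 597, 622 and 552, also below every control, without passing (-0.46, adjusted p = 0.284). The others, named after their values were seen, were Bcor, which fell in Foxj3-ES (-0.83, adjusted p = 0.0309), Sin3b, the single gene that rose (0.81, adjusted p = 0.0103), and the corepressor subunit Gps2, which fell in Zbtb18-ES (-0.61, adjusted p = 0.0499). The rise of Sin3b held in all 20 alternatives, while the calls of Bcorl1, Bcor, Hdac1 and Gps2 were lost in 10, 7, 10 and 14 of them, including the one without Control replicate 1 and the one without Control replicate 2 (adjusted p = 0.0535 to 0.111). Cul3 averaged 212, 211 and 182 and did not pass.

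Of 8 genes that have been reported as targets of Zbtb18, 6 were tested, and Neurog2 and Neurod4 were too low. Id2, an inhibitor of basic helix-loop-helix factors, rose in both lines, and none fell. It was at 124, 65.6 and 127 in control, 214, 252 and 212 in Foxj3-ES, and at 305, 284.9 and 319.7 in Zbtb18-ES, each library of the lines above each control. The rise was 1.15 in Foxj3-ES and 1.57 in Zbtb18-ES, with a standard error of 0.23 in each (limma, adjusted p = 0.0113 and 0.00438), in all 20 alternatives, and the lines did not pass the test between them (0.43, adjusted p = 0.402). The other 5, Id1, Id3, Id4, Neurod1 and Rnd2, did not pass in any comparison, and the medians of the 6 were -0.16 and 0.28. Over all genes tested 7.54% rose in Foxj3-ES and 5.31% in Zbtb18-ES, with medians of -0.03 and -0.02.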

How the data were processed

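RNA was sequenced from 9 libraries, and the authors deposited 1 table of RPKM values scaled by library upper quartile (UQRPKM), whose 9 columns were matched to samples by their labels. The submitters' notes name mm10 and DESeq. Neither the aligner nor the counting step with its strand setting nor the annotation is given in the sources used here. UQRPKM values are not counts, so no count test was used. limma 3.58.1 in R 4.3.3 was fitted to log2(UQRPKM + 1) with a mean-variance trend, without a replicate block. The fit was also tested on simulated data. Python 3.11.15, numpy 2.4.6, pandas 2.3.3 and matplotlib 3.10.9 were used for the tables. Coordinates, lengths, GC content and 3′ UTRs came from GENCODE M21, where all 40 members matched by symbol, and 35 had a promoter in the RefSeq table. No protein sequence was used.

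The members, the other gene lists and the alternatives were chosen with earlier results of these data known. Named with every library's value were Zbtb18, members past the threshold, the 5 highest and the 3 lowest members, and in each further list the 2 genes with the largest difference among those past the threshold. In these lists, 2 genes are not reported here and were left out of the counts and sums. Other names and values were chosen after the data were seen. The 20 alternatives were other pseudocounts (0.1 and 5), filters (none, and 5 in 3 libraries), scalings (same sum, quantile), the pair alone, no trend, a replicate block, a GC and length correction, mRNA genes only, and each library left out. A threshold of 2-fold was also applied to the counts.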

Additional observations from a re-analysis of the deposited data

Results flagged for a closer look

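Zbtb41 was the member whose change differed between the lines by a test of the difference itself. The effect in Zbtb18-ES was lower than that in Foxj3-ES by 1.46 on the log2 scale (-1.46, limma, adjusted p = 0.0327), with all 3 Foxj3-ES libraries above the controls and all 3 Zbtb18-ES libraries below them. Its value lay past the threshold in 9 of 20 alternatives, with adjusted p-values from 0.00483 to 0.115. No group had the 4 libraries that a test for single extreme values needs.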

How the results depend on the processing

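The falls of Zbtb45 in both lines, of Zbtb7a in Foxj3-ES and of Patz1 in both lines, and the rises of Id2 in both and of Sin3b in Foxj3-ES, kept their direction and stayed past the threshold in all 20 alternatives. Of 800 values of 16 genes under alternatives, 697 stayed on their side of the threshold, 83 lost a call, 15 gained one and 5 reversed, each of these without a call. Many of the 800 belong to comparisons not called in the main fit, where staying means no call. The 697 therefore do not measure how stable the calls were, and all 83 losses fell on calls. With a 2-fold threshold, 2 members were lower in Foxj3-ES and 2 in Zbtb18-ES. In Foxj3-ES, 1 member, Zbtb41, was called higher with the filter of 5, with the GC and length correction and with mRNA genes only. Genes called higher in all were then 1810 of 18008, 1456 of 19350 and 1099 of 15049. After scaling to the same sum 7 members were lower. Among these 7 were Zbtb2, Zbtb8a and Zbtb48, which were not called there in the main fit. In Zbtb18-ES, 1 member, Zbtb7b, was higher with the GC and length correction, and 2 were lower without the trend. Of all genes, 899 of 19350 were higher with that correction, and 945 of 22268 were lower without the trend. Between the lines 0 members were lower without a filter, with the same sum and with the pair alone. Genes lower in all were then 46 of 29794, 53 of 22268 and 15 of 22268. Scaling to the same sum moved the median of all genes to -0.21 in Foxj3-ES, where 3099 genes were lower and 1153 higher against 1562 and 1679 before, and to 0.12 between the lines, with 53 lower and 131 higher against 80 and 73, and the members' median in Foxj3-ES was then -0.50. With each library left out, 2 to 4 members were lower in Foxj3-ES, 2 to 5 lower and 0 to 1 higher in Zbtb18-ES (Zbtb7b without Control replicate 2, Zbtb32 without Zbtb18-ES replicate 2), and 0 to 1 lower between the lines. Over all 22268 genes, 754 to 1492 were then lower in Foxj3-ES. In Zbtb18-ES 639 to 1397 were lower and 570 to 1126 higher, and 8 to 186 were lower between the lines. The difference of Zbtb18 in Zbtb18-ES ranged from -0.24, without Zbtb18-ES replicate 2, to 0.69, and between the lines that of Zbtb45 from -0.15 to 0.40 and that of Zbtb9 from -0.027 to 0.43. The difference of Zbtb12 in Foxj3-ES turned to 0.15 with the GC and length correction. Where not stated, the cause was not tested.

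Same-numbered libraries did not deviate together (correlations from -0.05 to 0.08), so the numbers were not taken as pairs. With a replicate block 5 members were lower in Foxj3-ES, 4 in Zbtb18-ES and 0 between the lines, where 26 genes in all were lower and 35 higher. Against control, 1305 genes in all were then lower in Foxj3-ES and 1265 in Zbtb18-ES. Depth limits Zbtb16, Zbtb20, Zbtb46 and Zbtb7c, at 16 estimated reads or fewer, and also Zbtb4 and Zbtb42, whose lowest libraries held an estimated 10 and 16. The 3 libraries in each group limit the rest.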
